A study of Mus musculus with 6 samples.

Results

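The genes described here are the 110 protein-coding genes around Fasl on mouse chromosome 1 that were expressed at a set minimum, chosen by place from the 57180 identifiers of the count table. A gene was taken if GENCODE M21 lists it as protein-coding, if it lies whole between positions 141780689 and 181788495 of chromosome 1 (GRCm38), that is within 20 Mb of Fasl on either side, and if its counts summed over the 6 libraries reached 60. Of the 335 protein-coding genes in that window, 6 were left out by name, 3 of them above the minimum. Of the 329 others, 127 were listed at 0 in every library, 92 had 1 to 59 counts, and 110 passed. Whether a 0, here or among the markers below, means that a gene was not expressed was not tested. The only measured value in the rule was the summed count, to which the deeper gld libraries add more. The difference between the groups was not part of the rule, but the rule was set with earlier results of these data known. Distances are from the edge of a gene to the nearest edge of Fasl.

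Both groups were calvaria-derived cells, which are cells grown out of the bone of the mouse skull vault. The 3 wt libraries came from C57BL/6 mice. The 3 gld libraries, named FasL KO in the sample titles, came from the strain B6Smn.C3-Faslgld/J, homozygous for gld. The cells of both groups were grown in osteogenic medium with 4 mM β-glycerophosphate, 50 mg/ml ascorbate and 10% serum and, per the labels' protocols, were cultured for 72 h from day 14 of differentiation. The labels do not say that a group's 3 libraries are from different animals or dishes. A p-value here therefore speaks only of variation from library to library, part of which may be technical.

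Fas ligand is a membrane protein of the tumour necrosis factor family that triggers programmed cell death through its receptor Fas, and gld is a point mutation in its gene that impairs binding to Fas. It arose in C3H/HeJ mice and was moved into C57BL/6 by repeated backcrossing. A strain made in this way keeps donor DNA on both sides of the selected gene, in a stretch that shortens with each generation, and within it the genes carry the donor's variants. The members were therefore laid out by their distance from Fasl, to set carried strain DNA against an effect of the genotype. The mutation and any donor DNA beside it are in the same 3 libraries, so the effects of the 2 cannot be told apart by sample. The length of the donor segment in these mice is not given in the sources used here, and strain-specific bases were not analysed here.

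The wt libraries held 2011173 to 3105322 counts and the gld libraries 4048258 to 5245546. Fasl itself (chr1:161780689-161788495, minus strand) was listed at 0 in all 6 libraries, so its level gave no check of the genotype. Of 10 osteoblast markers 5 of the 7 tested rose and 1, Alpl, fell, while Spp1, Sp7 and Bglap had no wt count and at most 16 counts in a gld library. Their summed level, most of it Col1a1 and Col1a2, was 16313 to 23987 CPM (counts scaled to the same library size) in wt and 61404 to 67651 CPM in gld. Of 18 macrophage markers 4 were at 0 in every library (Adgre1, Csf1r, Tyrobp and Ctss), and the sum was 135 to 285 CPM in wt and 2467 to 6718 CPM in gld. Of 12 macrophage markers that could be tested, 11 rose and 1, Cd53, fell in gld. All 6 T and B lymphocyte markers were at 0, as were 4 of 6 endothelial markers, whose sum was 0.94 to 5.22 CPM in wt and 4.48 to 15.7 CPM in gld. In bulk samples, fewer cells of a type and less RNA per cell cannot be told apart.

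Within 20 Mb of Fasl, 26 of the 100 testable members differed between the groups, 12 higher and 14 lower in gld. With all 6 libraries the share was not highest next to Fasl, but the order of the distance bins changed when single libraries were left out. The largest fitted increases were in Slamf9, Angptl1, Nmnat2 and Pcp4l1, and the largest decreases in Rgs16 and Rgs5. Slamf9 and Angptl1 had no wt count and passed the count minimum through gld alone, and Nmnat2 had 4 wt counts. The sizes and order of these 3 rises are therefore uncertain. Called here means an adjusted p of at most 0.05 in edgeR's quasi-likelihood test of gld against wt, adjusted by Benjamini-Hochberg over all 8692 genes tested. Over all genes tested 17.4% were called, 9.74% higher and 7.69% lower, or 847 and 668 genes. With library size scaling alone, in place of TMM, it was 720 higher and 975 lower, and the median log2 fold change over all genes was -0.14 in place of 0.02. Over the 6069 other protein-coding genes tested at the same count minimum 21.4% were called, 12.3% higher and 9.06% lower. Over the 288 of these on the rest of chromosome 1 the share was 24.3%, 11.5% higher and 12.8% lower. The members' share of 26.0% lay near these backgrounds and just above the range over the other 19 chromosomes, from 19.0% on chromosome 19 to 24.4% on chromosome 6.

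The size of the differences was near that elsewhere, with a median somewhat above it. Over the 100 tested members the median absolute log2 fold change was 0.59, beside 0.49 over the other protein-coding genes and 0.52 over the rest of chromosome 1. Over the other 19 chromosomes it ran from 0.44 on chromosome 19 to 0.56 on chromosome 7, so the members lay just above this range. The median signed log2 fold change was 0.03 for the members and 0.06 for the other protein-coding genes. A difference of at least 2-fold was fitted for 28.0% of the members, 25.0% of the other protein-coding genes and 28.8% of those on the rest of chromosome 1. The groups did not overlap in 42.0% of the tested members, beside 33.3% of all genes tested and 37.6% of the other protein-coding genes. All 26 called members were among these on the CPM scale, while raw counts of genes that fell can overlap because the gld libraries were deeper.

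The gld libraries were deeper, and the minimum on the sum over 6 libraries let in more genes that were low in wt than genes that were low in gld. In all, 17 members had under 20 counts in the wt libraries together and 3 had under 20 in the gld libraries. Of these, 5 were called, all higher in gld. Among the 90 tested members with at least 20 counts in each group, 7 were higher and 14 lower. That is 23.3%, beside 19.4% of the other protein-coding genes under the same limit and 23.0% of those on the rest of chromosome 1. Their median absolute log2 fold change was 0.50, against 0.45 and 0.48. Over the tested members Spearman's rho between the total count and the absolute log2 fold change was -0.302, as a description over 100 genes that share the same 6 libraries.

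**Figure D1:**
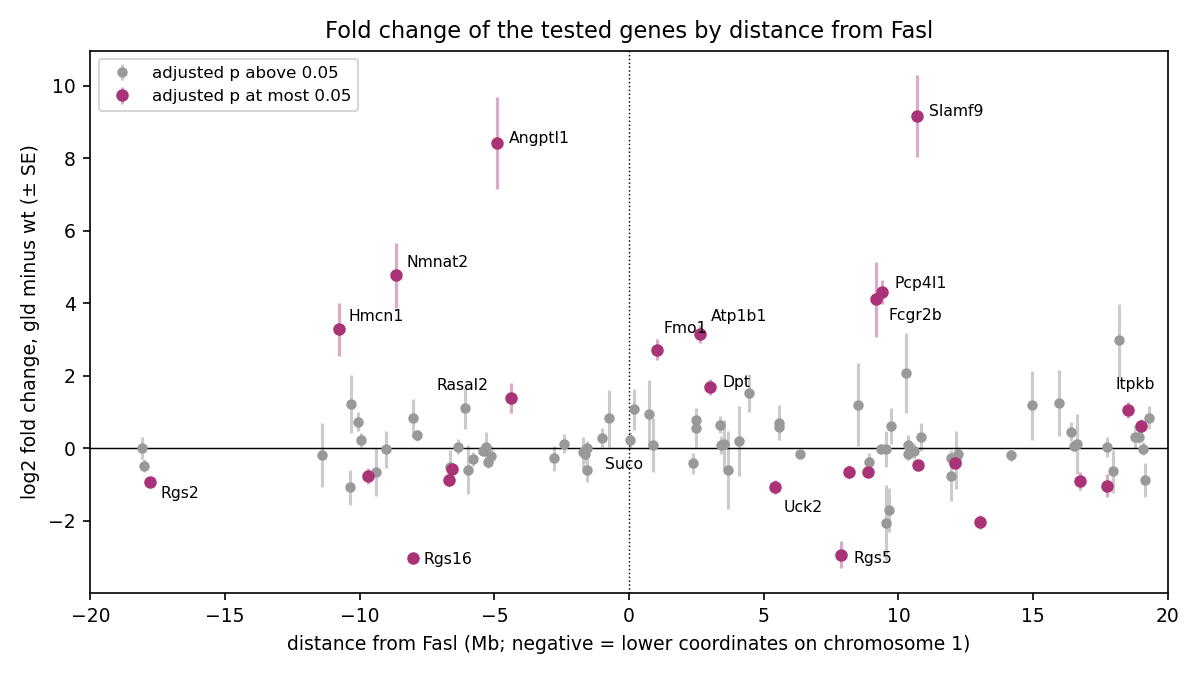
Log2 fold change (gld minus wt, ± SE) of the 100 tested members, by distance from Fasl in Mb, with negative distances for lower coordinates. Coloured points have an adjusted p of at most 0.05. Called genes lie from 1.04 to 19.0 Mb, on both sides, and Rgs16 and Rgs5 are the lowest of them.

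By distance the shares were 19.2% from 0 to 5 Mb (5 of 26), 31.4% from 5 to 10 Mb (11 of 35), 25.0% from 10 to 15 Mb (5 of 20) and 26.3% from 15 to 20 Mb (5 of 19). The bin next to Fasl had the lowest share of the 4 with all libraries, and also without wt library 3 or gld library 1. Without wt library 1 or gld library 2 the bin from 10 to 15 Mb was lowest, with 19.0% and 14.3%. Without wt library 2 or gld library 3 it was the bin from 15 to 20 Mb, with 15.8% and 11.8%, and without wt library 3 or gld library 2 this bin had 15.8% as well. The bin from 5 to 10 Mb had the highest share in each of these fits but the one without wt library 3, where it was the bin from 10 to 15 Mb with 28.6%. Median absolute log2 fold changes in the same order were 0.57, 0.62, 0.44 and 0.62. In bins of 10 Mb, 26.2% of 61 genes were called up to 10 Mb, with a median of 0.59, and 25.6% of 39 genes beyond, with a median of 0.49. On chromosome 1 from 20 to 40 Mb 28.2% of 78 genes were called, with a median of 0.41. With at least 20 counts in each group the 4 bins had 16.7%, 28.1%, 17.6% and 29.4%. Spearman's rho between distance and absolute log2 fold change over the 100 tested members was 0.0271, given as a description since genes are not replicates.

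**Figure D2:**
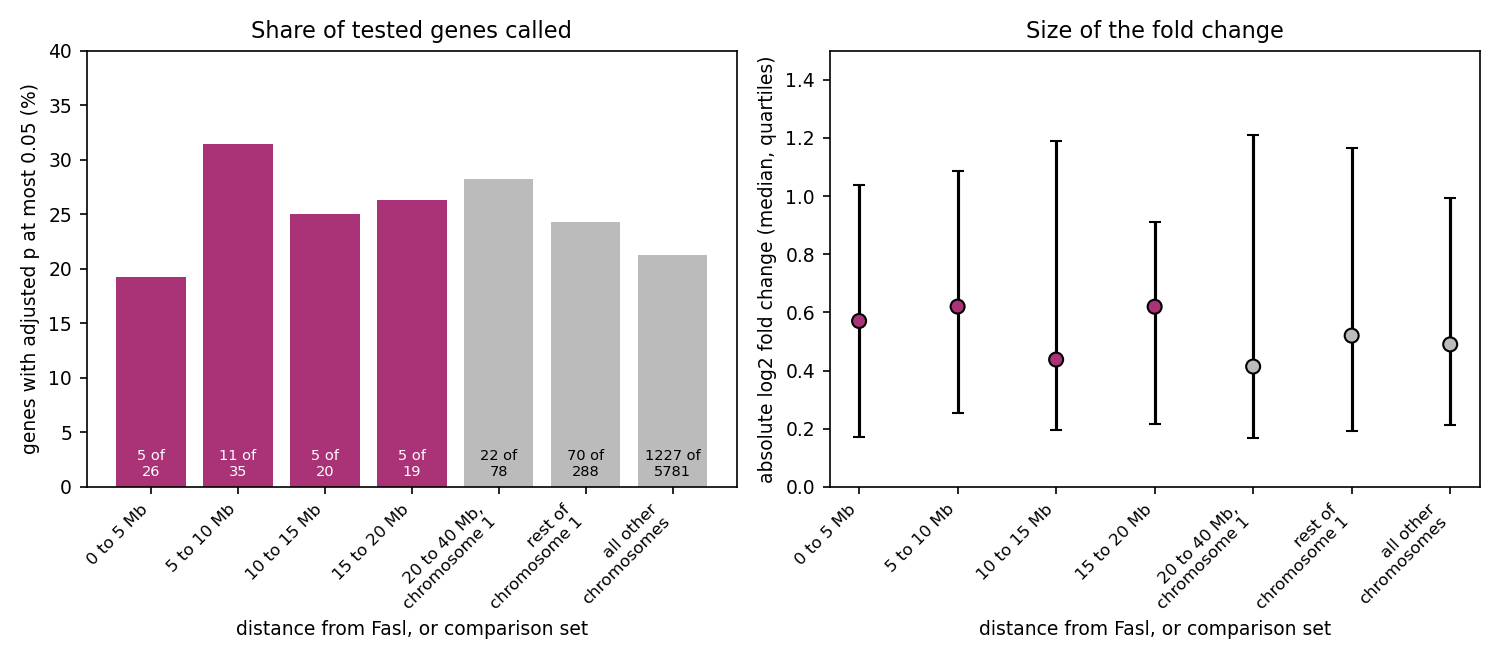
Left, the share of tested genes with an adjusted p of at most 0.05, in percent, in 4 bins of distance from Fasl and in 3 comparison sets, with counts inside the bars. Right, the median absolute log2 fold change of the same genes, with lines from the first to the third quartile. With all 6 libraries the bin from 0 to 5 Mb has a share of 19.2%, an order that changes when wt library 1 or 2 or gld library 2 or 3 is left out, and the medians run from 0.41 to 0.62.

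The balance of higher and lower genes varied from bin to bin. From 0 to 5 Mb, 5 of 26 tested members were called higher (19.2%) and 0 lower, beside 12.3% higher and 9.06% lower among the other protein-coding genes. In this bin 19 of 26 fold changes were positive, or 73.1%, beside 54.3% of those genes, and the median was 0.26. The 2 sides of Fasl differed here. At lower coordinates 5 of 10 were positive (50.0%, median 0.06), and at higher ones 14 of 16 (87.5%, median 0.60). Over both sides, with at least 20 counts in each group, 4 of 24 were called higher and 0 lower. No tested gene from 0 to 5 Mb had a negative fold change with an unadjusted p under 0.05 in edgeR, and 1 did with library size scaling alone. DESeq2 and limma-voom, on the same 6 libraries, called 0 lower as well. All these counts cover only genes that passed the filter on low counts. Of the untested members from 0 to 5 Mb, Prdx6 was lower in every gld library on the CPM scale, and Myoc had no wt count. Without the filter 25.0% of the members from 0 to 5 Mb were called. Over the whole window 15 members were then called lower, in place of 14, and which ones is not given here. From 5 to 10 Mb 3 were higher and 8 lower, with a median of -0.17. From 10 to 15 Mb it was 2 and 3, with a median of -0.16, and from 15 to 20 Mb again 2 and 3, with a median of 0.05. With library size scaling alone the 4 medians were 0.11, -0.32, -0.31 and -0.11, so the last one changed sign, and 15 of 26 fold changes from 0 to 5 Mb were positive. These differences in direction were not tested. Over the whole window the 2 sides of Fasl had similar shares called, 24.3% of 37 tested members at lower coordinates and 27.0% of 63 at higher ones. At lower coordinates no member lies between 11.4 and 17.0 Mb from Fasl.

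The 12 tested members nearest to Fasl held 1 called gene, Fmo1, or 8.33%, and extended to 2.36 Mb. The other 11 had log2 fold changes of -0.59 to 1.07 and adjusted p of 0.242 to 0.993. Within 1 Mb of Fasl, 6 of 8 members passed the filter on low counts and were tested. Of these 6, 0 were called, and 0 had an unadjusted p under 0.05 in edgeR. DESeq2 and limma-voom called 0 of these 6 too. Dnm3, Prrc2c and Rabgap1l share their 3′ ends between transcripts. Of the tested members with a shared end 2 of 25 were called (8.0%), beside 24 of 75 with a single end (32.0%). Among the other protein-coding genes it was 14.3% and 23.5%, and these differences were not tested. Mettl13 and Zbtb37 were low, with 74 and 122 counts in all. A p that misses the threshold does not show that these genes were equal, and the standard errors of the 6 were 0.23 to 0.95.

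The nearest member of all is Suco (chr1:161816114-161876682, minus strand), 27.6 kb from Fasl. It encodes an ossification factor of the endoplasmic reticulum that mouse osteoblasts need for normal collagen output. Suco had 158, 389 and 223 counts in the wt libraries and 472, 374 and 470 in the gld libraries, and the groups overlapped. The fitted difference was a log2 fold change of 0.23 ± 0.23 (SE, adjusted p = 0.592), on mean levels of 88.6 ± 29.9 CPM for wt and 104 ± 11.7 CPM for gld (SD, n = 3). Its promoter is shown together with that of Atp1b1, 2.65 Mb from Fasl, because Suco did not pass the test and Atp1b1 rose in gld. The letters are those of RefSeq on GRCm38.p6, from 250 bases before to 50 bases after the gene's start, read on the gene's strand. They are the C57BL/6 reference and not the bases of the gld mice. Capitals mark the CCAAT box, the GC box GGGCGG or the core TGACG of the cAMP response element, on either strand.
Suco, chr1:161876633-161876932, minus strand: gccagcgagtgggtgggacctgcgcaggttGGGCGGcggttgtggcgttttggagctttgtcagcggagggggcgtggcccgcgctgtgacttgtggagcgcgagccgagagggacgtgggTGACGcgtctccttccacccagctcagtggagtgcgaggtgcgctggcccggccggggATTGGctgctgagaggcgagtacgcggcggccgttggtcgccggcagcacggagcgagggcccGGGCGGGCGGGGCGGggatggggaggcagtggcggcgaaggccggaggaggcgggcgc
Atp1b1, chr1:164458306-164458605, minus strand: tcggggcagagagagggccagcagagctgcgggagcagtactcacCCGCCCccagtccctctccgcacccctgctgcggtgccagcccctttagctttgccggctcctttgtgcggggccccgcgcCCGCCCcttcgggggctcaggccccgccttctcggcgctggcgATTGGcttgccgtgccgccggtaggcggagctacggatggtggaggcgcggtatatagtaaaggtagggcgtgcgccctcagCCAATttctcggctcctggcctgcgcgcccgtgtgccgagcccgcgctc

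The Suco window held 1 CCAAT, 4 GGGCGG and 1 TGACG, and the Atp1b1 window 2 CCAAT and 2 GGGCGG. Neither held the TATA box TATAAA or the full response element TGACGTCA. A full element contains the core TGACG and is counted under both. Of the 110 members 88 had an entry, with 100 promoters in all. CCAAT was found in 39.0% of the members' promoters and in 38.08% of the 5670 promoters of other coding genes at the same count minimum. GGGCGG was in 62.0% against 64.34%, the TATA box in 7.0% against 7.813%, TGACGTCA in 2.0% against 3.316% and TGACG in 21.0% against 31.66%. Over all 32851 promoters in the table the 5 shares were 37.41%, 35.66%, 13.62%, 1.79% and 20.81% in the same order. A match describes letters and is not evidence of a bound site.

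Next outwards from Suco lie Dnm3, a dynamin GTPase of membrane fission, and Mettl13, a methyltransferase of a translation elongation factor. Dnm3, 0.194 Mb from Fasl, had 19, 11 and 19 counts in the wt libraries and 41, 44 and 78 in the gld libraries. All 3 gld libraries exceeded the wt libraries in raw counts and in CPM, and the test gave a log2 fold change of 1.07 ± 0.56 (SE, adjusted p = 0.242), which did not pass. Mettl13, at 0.744 Mb, had 7, 4 and 8 counts in the wt libraries and 29, 15 and 11 in the gld libraries, with a log2 fold change of 0.94 (adjusted p = 0.608). Zbtb37, a zinc finger gene at 0.746 Mb, had 9, 20 and 4 counts in the wt libraries and 24, 26 and 39 in the gld libraries, with a log2 fold change of 0.82 (adjusted p = 0.58). The groups overlapped in both genes.

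Prrc2c, which encodes an RNA-binding protein, varied most within gld among the nearest genes, with 30, 26 and 18 counts in the wt libraries and 77, 34 and 7 in the gld libraries. Its log2 fold change was 0.10, and its last exonic bases are shared by several of its transcripts. Whether this affected its deposited counts was not tested. Rabgap1l, a Rab GTPase-activating protein gene at 0.987 Mb, had 59, 103 and 95 counts in the wt libraries and 142, 133 and 189 in the gld libraries, with a log2 fold change of 0.29. Its groups did not overlap in CPM, and it did not pass (adjusted p = 0.559). Beyond Fmo1 came Cacybp, Mrps14, Tnn, 4930523C07Rik and F5. Their log2 fold changes were -0.00 for Cacybp, -0.59 for the mitochondrial ribosomal protein gene Mrps14 and -0.16 for Tnn, the bone matrix glycoprotein tenascin-W. They were -0.12 for 4930523C07Rik and -0.41 for F5, coagulation factor V. None of these 5 was called.

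Both untested members within 1 Mb were low. Myoc, which encodes the secreted glycoprotein myocilin, had no count in the 3 wt libraries and 7, 18 and 37 counts in the 3 gld libraries, at least 13.4-fold higher in gld against a floor of 3 counts over the wt group. Prdx6, a peroxiredoxin gene 0.529 Mb away, had 5, 23 and 54 counts in the wt libraries and 2, 2 and 6 in the gld libraries, and every gld value in CPM lay under every wt value. Neither passed the filter on low counts, so neither has a test in the fit reported here. Without that filter 25.0% of the members from 0 to 5 Mb were called, against 19.2% with it. The values of Myoc and Prdx6 in that fit are not given here.

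Between 1 and 5 Mb 5 members rose, and Fmo1, Atp1b1 and Dpt were among the most abundant of the genes that rose. Fmo1 (chr1:162829561-162866610, minus strand), which encodes a flavin-containing monooxygenase, had 40, 43 and 30 counts in the wt libraries and 398, 281 and 470 in the gld libraries. Every gld library lay well above every wt library, and the difference was a log2 fold change of 2.72 ± 0.29 (SE, adjusted p = 8.32e-06), from 13.9 ± 4.8 CPM for wt and 90.0 ± 13.8 CPM for gld (SD, n = 3). Part of its 3′ end is shared between transcripts. Atp1b1 (chr1:164437109-164458355, minus strand), the beta 1 subunit of the sodium and potassium pump, had 102, 73 and 72 counts in the wt libraries and 1086, 1029 and 1301 in the gld libraries. The 3 gld libraries were almost equal on the CPM scale, and the difference was a log2 fold change of 3.16 ± 0.25 (SE, adjusted p = 4.19e-07), from 31 ± 14.6 CPM for wt and 269.8 ± 2.35 CPM for gld (SD, n = 3). Dpt (chr1:164796644-164824266, plus strand), which encodes dermatopontin, a small matrix protein that binds collagen fibrils, had 68, 110 and 158 counts in the wt libraries and 571, 468 and 520 in the gld libraries. Its difference was a log2 fold change of 1.68 ± 0.22 (SE, adjusted p = 5.74e-05), and the groups stood apart.

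Angptl1 (chr1:156838562-156861078, plus strand), a secreted angiopoietin-like protein gene, had no count in the 3 wt libraries and 44, 53 and 55 counts in the 3 gld libraries. With no wt count the fold is a bound, at least 34.4-fold higher in gld, and the test gave an adjusted p of 0.000438. Rasal2 (chr1:157135182-157412595, minus strand), which encodes a Ras GTPase-activating protein, had 26, 72 and 24 counts in the wt libraries and 121, 114 and 244 in the gld libraries. It rose by 1.38 ± 0.42 (SE) on the log2 scale, with the highest wt and the lowest gld value close together, and an adjusted p of 0.0331. The call was lost without wt library 1 (adjusted p = 0.102), wt library 3 (0.129) or gld library 3 (0.16). The other 4 genes of this bin that rose kept their calls in every alternative that gave a value.

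**Figure D3:**
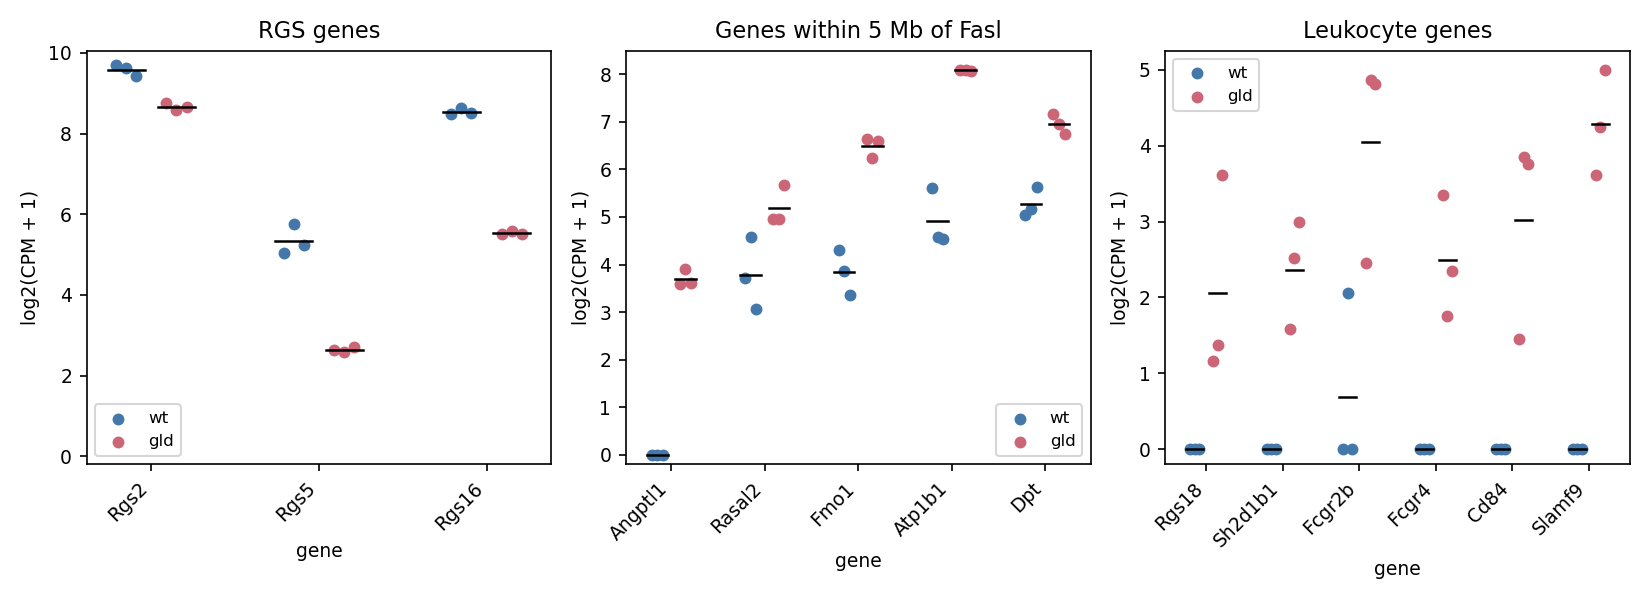
Level of each gene in each library, as log2(CPM + 1), for the 3 tested RGS genes, the 5 called genes within 5 Mb of Fasl and 6 leukocyte genes. Rgs18, the untested RGS member, is drawn with the leukocyte genes. Points are libraries and bars group means. The 3 tested RGS genes are lower in all 3 gld libraries, the genes within 5 Mb are higher in all 3, and 5 of the 6 leukocyte genes have no wt count.

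All 3 tested genes for regulators of G protein signalling (RGS) fell in gld, beside 14.0% of all tested members and 9.06% of the other protein-coding genes. The list was made with earlier results known, and its untested member Rgs18 had counts in gld alone. RGS proteins speed up GTP hydrolysis by G protein alpha subunits and so shorten signals from receptors at the cell surface. The list holds 11 genes of the window, 4 of them at 0 in every library, and 4 are members. Rgs16 (chr1:153740349-153745468, plus strand) had 758, 1246 and 1191 counts in the wt libraries and 178, 177 and 219 in the gld libraries. The gld libraries lay close together on the CPM scale and far under wt, with a log2 fold change of -3.04 ± 0.14 (SE, adjusted p = 2.87e-09), from 372 ± 19.6 CPM for wt and 45.3 ± 1.18 CPM for gld (SD, n = 3). Rgs5 (chr1:169655501-169695813, plus strand), known as a marker of pericytes, had 68, 169 and 119 counts in the wt libraries and 21, 19 and 27 in the gld libraries. It also stood apart without overlap, with a log2 fold change of -2.94 ± 0.37 (SE, adjusted p = 4.24e-05).

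Rgs2 (chr1:143999338-144004161, minus strand), a gene induced by parathyroid hormone in bone cells, had 1767, 2509 and 2227 counts in the wt libraries and 1739, 1445 and 1970 in the gld libraries. All 3 gld libraries were lower once scaled, 769 ± 76.2 CPM for wt and 406 ± 26.4 CPM for gld (SD, n = 3), with a log2 fold change of -0.92 ± 0.12 (SE, adjusted p = 5.2e-05). The 3 genes are not neighbours, since Rgs16 and Rgs5 lie 8.04 and 7.87 Mb from Fasl on opposite sides and Rgs2 17.8 Mb away at lower coordinates. The 3 calls held in every alternative that gave a value. The remaining member, Rgs18, known from blood cells and platelets, had no count in the 3 wt libraries and 5, 6 and 55 counts in the 3 gld libraries, at least 13.4-fold higher in gld, and was not tested. Most of its counts were in gld library 3, which also had the highest macrophage sum, and a link between them was not tested.

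The promoters of the 3 RGS genes that fell are given because they moved in the same direction from 3 separate places. Capitals mark the same motifs.
Rgs2, chr1:144004100-144004399, minus strand: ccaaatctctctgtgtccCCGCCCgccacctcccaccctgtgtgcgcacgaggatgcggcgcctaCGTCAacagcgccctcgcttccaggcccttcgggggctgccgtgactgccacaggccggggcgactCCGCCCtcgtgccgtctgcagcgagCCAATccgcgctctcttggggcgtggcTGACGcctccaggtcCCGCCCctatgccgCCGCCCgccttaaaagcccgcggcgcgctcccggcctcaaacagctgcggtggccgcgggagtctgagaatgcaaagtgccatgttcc
Rgs5, chr1:169655251-169655550, plus strand: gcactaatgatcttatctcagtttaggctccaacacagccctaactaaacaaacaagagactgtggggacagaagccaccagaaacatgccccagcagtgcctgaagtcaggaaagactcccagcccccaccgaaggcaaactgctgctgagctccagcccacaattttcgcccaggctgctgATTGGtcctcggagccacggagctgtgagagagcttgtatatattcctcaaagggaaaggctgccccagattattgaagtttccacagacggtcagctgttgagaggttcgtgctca
Rgs16, chr1:153740103-153740402, plus strand: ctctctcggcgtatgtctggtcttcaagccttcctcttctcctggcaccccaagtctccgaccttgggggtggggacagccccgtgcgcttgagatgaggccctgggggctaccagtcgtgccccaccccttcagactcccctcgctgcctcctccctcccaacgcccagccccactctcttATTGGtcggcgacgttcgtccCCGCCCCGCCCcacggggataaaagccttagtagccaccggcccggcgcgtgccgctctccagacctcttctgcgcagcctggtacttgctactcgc

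Each held 1 CCAAT, counted on either strand, at -94 in Rgs2, -67 in Rgs5 and -68 in Rgs16 relative to the start. GGGCGG was found 4 times in Rgs2 and 2 times in Rgs16, TGACG 2 times in Rgs2, and none held the TATA box or the full response element. The GC content was 70.0% for Rgs2, 52.33% for Rgs5 and 66.0% for Rgs16. CCAAT alone is in 39.0% of the members' promoters.

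Genes of the matrix, adhesion and secreted factors moved in both directions. Of 27 such genes in the window 10 were at 0 in every library, 12 are members and 9 were tested. Of these 3 rose (Dpt, Angptl1 and Hmcn1) and 2 fell, Olfml2b among them, and the median log2 fold change was -0.28, or -0.44 with library size scaling alone. Olfml2b, which encodes a secreted olfactomedin-domain protein, had 692, 1185 and 1281 counts in the wt libraries and 749, 1003 and 1185 in the gld libraries. On the CPM scale this was 364 ± 35.2 CPM for wt and 232 ± 40.1 CPM for gld (SD, n = 3), with a log2 fold change of -0.66 ± 0.15 (SE, adjusted p = 0.0058).

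Hmcn1, which encodes the large matrix protein hemicentin 1, had 1, 16 and 2 counts in the wt libraries and 61, 84 and 124 in the gld libraries. It rose by 3.27 ± 0.72 (SE) on the log2 scale (adjusted p = 0.00495). Most of the wt counts were in library 2, without which the fold change was 5.16. The 4 tested genes that were not called were Lefty1, an inhibitor of Nodal signalling (-0.87), Qsox1, a sulfhydryl oxidase (-0.59), Pappa2, a protease of insulin-like growth factor binding proteins (-0.28), and Tnn (-0.16), all as log2 fold changes. Colgalt2, which encodes a galactosyltransferase of collagen, was untested with no count in the 3 wt libraries and 7, 58 and 65 counts in the 3 gld libraries. It was at least 28.9-fold higher in gld, and gld library 1 was much lower than the others. Fam20b, a xylose kinase gene of proteoglycan synthesis, was untested with 2, 7 and 0 counts in the wt libraries and 20, 1 and 34 in the gld libraries.

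Of 35 genes on the leukocyte and vascular list 11 were at 0 in every library, 9 are members, 6 were tested, 2 rose and 0 fell in edgeR. DESeq2 and limma-voom called 0 lower as well. In edgeR F11r had an unadjusted p of 0.0147 for a lower level, and it was called with library size scaling alone (adjusted p = 0.042), without the filter on low counts (0.0259), and without wt library 1 (0.0387) or gld library 3 (0.0238). The macrophage markers rose in the same libraries, with summed levels of 2467, 3816 and 6718 CPM in gld libraries 1, 2 and 3, and their part in these results was not tested. Slamf9, a receptor gene of the SLAM family, had no count in the 3 wt libraries and 45, 68 and 151 counts in the 3 gld libraries, ordered over the gld libraries as that sum is. It was at least 57.1-fold higher in gld, with an adjusted p of 8.82e-05. Fcgr2b, the inhibitory receptor for immunoglobulin G, had 0, 10 and 0 counts in the wt libraries and 18, 107 and 132 in the gld libraries, with 1 wt library at 10 counts and gld library 1 the lowest of its group.

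The fitted rise of Fcgr2b was 4.10 ± 1.03 (SE) on the log2 scale, with an adjusted p of 0.0115. Without wt library 2 it was 9.17 and without wt library 3 it was 3.49. The call was lost in DESeq2 (adjusted p = 0.125), in limma-voom (0.173) and without gld library 2 (0.056) or gld library 3 (0.0576). No wt count was found in 8 members, 7.27% of the 110, beside 1.73% of the 6258 other protein-coding genes at the same minimum. Such a gene passed the minimum through gld alone, so its 60 or more gld counts and its bound follow from the choice and are a description. Of these 8 members, 5 are genes of blood cells: Slamf9, Rgs18, Sh2d1b1, Fcgr4 and Cd84. Sh2d1b1, an adaptor of SLAM receptors, had no count in the 3 wt libraries and 8, 18 and 34 counts in the 3 gld libraries, and a small part of its 3′ end also occurs in Sh2d1b2. Fcgr4, an activating receptor for immunoglobulin G, had no count in the 3 wt libraries and 37, 9 and 20 counts in the 3 gld libraries, and Cd84, another SLAM family gene, had no count in the 3 wt libraries and 7, 51 and 61 counts in the 3 gld libraries. These 3 were untested and at least 13-fold, 14.9-fold and 26.3-fold higher in gld. Fcgr4 was highest in gld library 1, unlike the macrophage sum.

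F11r, which encodes a junctional adhesion molecule, had 20, 103 and 67 counts in the wt libraries and 9, 20 and 56 in the gld libraries and overlapping groups, with a log2 fold change of -1.71 ± 0.61 (SE, adjusted p = 0.0738). F5 had a log2 fold change of -0.41 and Mr1, which presents metabolites to T cells, of -0.51. None of these 3 was called in edgeR. The HIN-200 genes, interferon-inducible sensors and regulators in a cluster near 12 Mb, gave 1 call among 5 tested members. Of 13 in the window 3 were at 0, and the median log2 fold change of the 5 was -0.33, or -0.48 with library size scaling alone. Ifi211 had 704, 1185 and 1080 counts in the wt libraries and 967, 1007 and 1351 in the gld libraries, with a log2 fold change of -0.40 ± 0.12 (SE, adjusted p = 0.0364). The call was lost without any single library other than gld library 3 (adjusted p of 0.0738 to 0.124) and without the filter on low counts (0.0975). Of the 40-base words in its last 300 bases 84% also occur in Ifi205 or Mndal, so its counts are uncertain. Ifi204 had a log2 fold change of -0.28, Ifi205 of -0.16, Ifi207 of -0.78 and Ifi203 of -0.33. All 5 were negative, and 4 did not pass.

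Outside the HIN-200 and leukocyte lists 23 of 89 tested members were called, 10 higher and 13 lower, a share of 25.8%.

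Of 33 metabolism genes in the window 8 were at 0 and all 13 members were tested. With Fmo1, Nmnat2 rose, while Uck2 and Hsd17b7 fell, and the median log2 fold change was 0.03, or -0.11 with library size scaling alone. Nmnat2, an enzyme of NAD synthesis best known in axons, had 3, 1 and 0 counts in the wt libraries and 57, 54 and 73 in the gld libraries. No gld library came near wt, with a log2 fold change of 4.76 ± 0.90 (SE, adjusted p = 0.00146), though the fold change was 6.26 without wt library 1 and 4.13 without wt library 3. Its 3′ end is shared between transcripts. Uck2, which encodes the uridine and cytidine kinase of pyrimidine salvage, had 278, 509 and 586 counts in the wt libraries and 315, 240 and 400 in the gld libraries, that is 157 ± 24.9 CPM for wt and 74.7 ± 10.0 CPM for gld (SD, n = 3), with a log2 fold change of -1.07 ± 0.18 (SE, adjusted p = 0.000663). Hsd17b7, an enzyme of cholesterol synthesis, had 358, 785 and 561 counts in the wt libraries and 566, 487 and 521 in the gld libraries and a log2 fold change of -0.65 ± 0.18 (SE, adjusted p = 0.0222).

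Without wt library 2 the fold change of Hsd17b7 was -0.44 and it was not called (adjusted p = 0.118), nor was it without gld library 3 (0.0734). Among those not called, Glul, which encodes glutamine synthetase, had 430, 744 and 535 counts in the wt libraries and 909, 948 and 1424 in the gld libraries and a log2 fold change of 0.36 (adjusted p = 0.162). Sdhc, a subunit of succinate dehydrogenase, had 494, 649 and 837 counts in the wt libraries and 913, 946 and 1034 in the gld libraries. Its mean levels were 231 ± 25.9 CPM for wt and 229.8 ± 18.7 CPM for gld (SD, n = 3), with a log2 fold change of -0.01 ± 0.14 (SE). Nit1, an amidase gene, had 11, 19 and 19 counts in the wt libraries and 5, 10 and 1 in the gld libraries, and a log2 fold change of -2.05 that did not pass (adjusted p = 0.22).

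Genes of the nucleus and of RNA handling held 1 call among 17 tested members, and their median log2 fold change was 0.00, or -0.14 with library size scaling alone. The list has 35 genes in the window, 7 of them at 0. H3f3a, which encodes the replacement histone H3.3, had 215, 240 and 273 counts in the wt libraries and 492, 489 and 719 in the gld libraries, with a log2 fold change of 0.62 ± 0.18 (SE, adjusted p = 0.0245). Its call was lost with library size scaling alone (adjusted p = 0.0946) and without any of 4 single libraries, wt 2 and 3 and gld 2 and 3 (0.0758 to 0.107). Nvl, an ATPase of ribosome assembly and the member farthest from Fasl at 19.3 Mb, had 47, 78 and 49 counts in the wt libraries and 178, 123 and 165 in the gld libraries and an adjusted p of 0.0848. Trove2, the gene of the Ro60 RNA-binding protein, had a log2 fold change of -0.49 (adjusted p = 0.0891). It was called lower with library size scaling alone (0.0213), in limma-voom (0.0495) and without gld library 2 (0.0438).

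Some genes of this list had fold changes near 0. Hnrnpu, a nuclear RNA-binding protein gene, had 976, 1465 and 1381 counts in the wt libraries and 1821, 1953 and 2052 in the gld libraries and a log2 fold change of 0.05 ± 0.12 (SE). Cdc73, of the Paf1 complex, had 65, 186 and 104 counts in the wt libraries and 200, 153 and 156 in the gld libraries and a log2 fold change of 0.00 ± 0.31 (SE).

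Trafficking and signalling was the longest list, with 47 genes in the window, 8 at 0, 23 members and 22 tested. Atp1b1, Itpkb and Rasal2 rose and Ier5, Stx6, Tagln2 and Cnst fell, with a median log2 fold change of 0.30, or 0.14 with library size scaling alone. Itpkb, a kinase of inositol trisphosphate, had 77, 165 and 172 counts in the wt libraries and 465, 336 and 448 in the gld libraries, that is 47.1 ± 9.42 CPM for wt and 98.9 ± 14.9 CPM for gld (SD, n = 3). The lowest gld value was above the highest wt value, with a log2 fold change of 1.06 ± 0.22 (SE, adjusted p = 0.00289). Ier5, an immediate early response gene, had 1063, 1566 and 1691 counts in the wt libraries and 1094, 758 and 1667 in the gld libraries, that is 505 ± 12.8 CPM for wt and 272 ± 71.2 CPM for gld (SD, n = 3). The gld libraries spread more widely than wt but all lay lower, with a log2 fold change of -0.89 ± 0.16 (SE, adjusted p = 0.0013).

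Smaller declines were found in Stx6, a SNARE protein gene of the endosome (-0.57 ± 0.14 SE), and Tagln2, which encodes an actin-binding transgelin (-0.47 ± 0.12 SE), both on the log2 scale. Stx6 had 517, 712 and 692 counts in the wt libraries and 557, 657 and 711 in the gld libraries (adjusted p = 0.0122). The call was lost without wt library 1 (0.0612) or gld library 1 (0.0533). Tagln2 had 2770, 3232 and 3574 counts in the wt libraries and 3385, 2747 and 4367 in the gld libraries (adjusted p = 0.0135), and lost its call without wt library 1 (0.0848) or gld library 2 (0.0719). Cnst, whose product consortin sorts connexins to the surface, had 98, 88 and 125 counts in the wt libraries and 62, 77 and 91 in the gld libraries, with a log2 fold change of -1.04 ± 0.31 (SE, adjusted p = 0.0337). Its call was lost when any single library but wt library 2 was left out (adjusted p of 0.0592 to 0.157).

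A few members of this list came close to the threshold. Cdc42bpa, a kinase that binds Cdc42, had 3, 1 and 3 counts in the wt libraries and 22, 13 and 58 in the gld libraries, and a log2 fold change of 2.98 ± 1.01 (SE) gave an adjusted p of 0.0585. Fam129a had 71, 130 and 175 counts in the wt libraries and 375, 247 and 273 in the gld libraries (adjusted p = 0.0699), and Sft2d2, a gene of vesicle transport, had 87, 172 and 117 counts in the wt libraries and 267, 298 and 299 in the gld libraries (adjusted p = 0.073). In these 3 the groups did not overlap on the CPM scale. DESeq2 called Cdc42bpa (adjusted p = 0.046), Fam129a passed without the filter on low counts (0.0331), and Sft2d2 passed without wt library 2 (0.0408). Copa, a coatomer subunit gene, had 3, 0 and 11 counts in the wt libraries and 49, 20 and 16 in the gld libraries, overlapping groups and a log2 fold change of 2.08 (adjusted p = 0.25), and its 3′ end is shared between transcripts.

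The 134 genes of the window in no list included 79 at 0, and of 25 tested members 1 rose and 2 fell. Pcp4l1, a small IQ-motif protein gene, was among the steepest rises, with 15, 16 and 8 counts in the wt libraries and 350, 350 and 481 in the gld libraries. The 3 gld libraries were close together once scaled, 4.85 ± 2.3 CPM for wt and 92.8 ± 5.73 CPM for gld (SD, n = 3), with a log2 fold change of 4.30 ± 0.33 (SE, adjusted p = 3.4e-07). Kif26b, a kinesin family gene, had 205, 414 and 334 counts in the wt libraries and 325, 177 and 238 in the gld libraries and a log2 fold change of -0.90 ± 0.24 (SE, adjusted p = 0.015). Without wt library 2 (adjusted p = 0.0746), gld library 2 (0.0609) or gld library 3 (0.0565) it was not called. For 1700025G04Rik there were 146, 225 and 248 counts in the wt libraries and 157, 184 and 192 in the gld libraries, with a log2 fold change of -0.77 ± 0.21 (SE, adjusted p = 0.0203). It lost its call without wt library 2 (0.052), wt library 3 (0.0893), gld library 1 (0.0633) or gld library 3 (0.0538). Ildr2, which encodes an immunoglobulin-like membrane protein, had 20, 11 and 14 counts in the wt libraries and 67, 64 and 73 in the gld libraries, no overlap and an adjusted p of 0.0663.

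**Figure D4:**
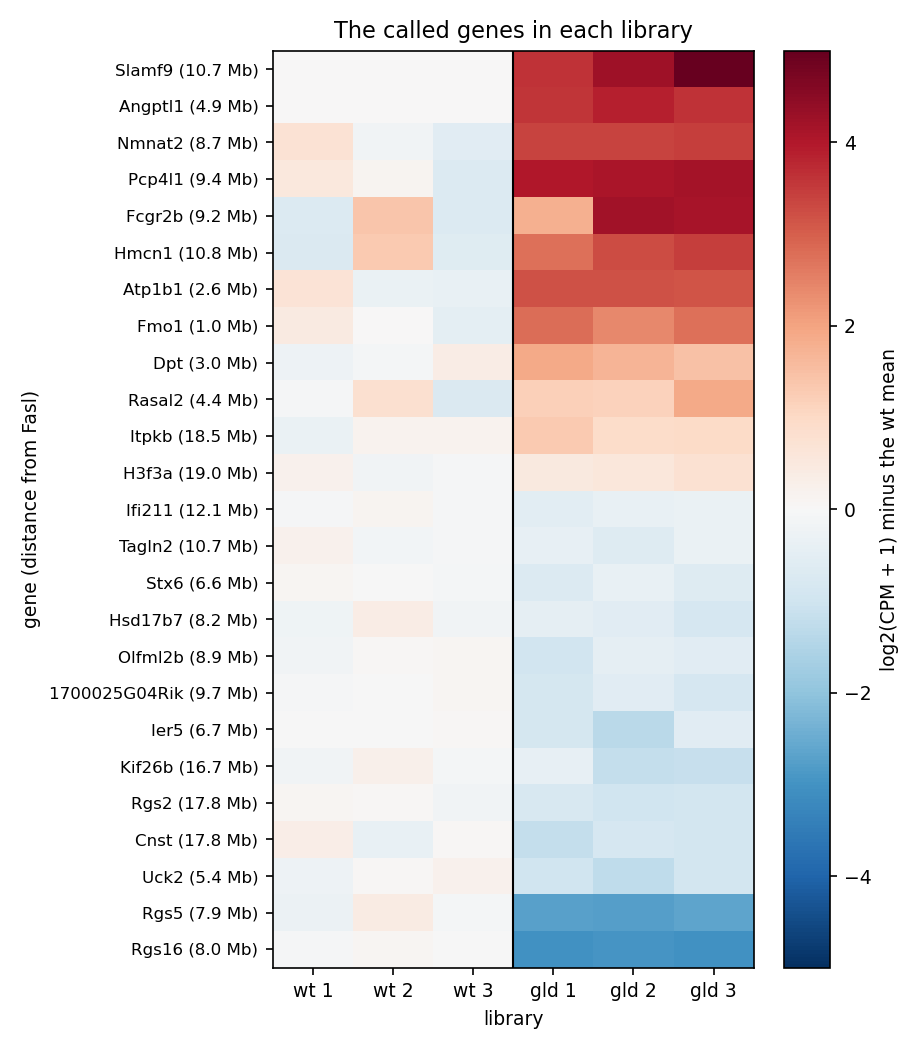
Level of the called members, 1 of the 26 left out, in each of the 6 libraries, as log2(CPM + 1) minus the wt mean of that gene, with the distance from Fasl beside the name. Genes are ordered from the largest fitted increase (Slamf9) to the largest decrease (Rgs16). The 5 called genes within 5 Mb of Fasl are all among the increases, and genes farther away are in both parts.

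The 74 tested members that were not called had log2 fold changes from -2.05 to 2.98. Of these, 43 lay within 0.5 of 0 on the log2 scale, and 12 had a fitted difference of at least 2-fold. In 16 the groups did not overlap. Of the 26 called members, 11 were at least 2-fold higher and 5 at least 2-fold lower. All members are accounted for, since 10 of the 110 did not pass the filter on low counts: Rgs18, Colgalt2, Fam20b, Prdx6, Myoc, Sh2d1b1, Fcgr4, Usp21, Cd84 and Fmn2. Of these, Usp21 had 5, 2 and 7 counts in the wt libraries and 0, 11 and 43 in the gld libraries, and Fmn2 had 13, 5 and 30 counts in the wt libraries and 3, 8 and 3 in the gld libraries.

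Of the 110 members 83 have their last 300 bases in a single annotated transcript and 27 share them between transcripts. Among the 329 genes considered for the choice, 185 have a single end and 144 a shared one. Genes with a shared end thus passed the count minimum less often, and the reason was not tested. Among the tested members with a single end, 24 of 75 were called, 10 higher and 14 lower, or 32.0%. Among those with a shared end 2 of 25 were called, Fmo1 and Nmnat2, or 8.0%. Of the other protein-coding genes at the same minimum 23.5% with a single end and 14.3% with a shared end were called, and the differences between these shares were not tested. In 7 members some 40-base words of the 3′ end also occur in other genes, in 3 of them at least 50% of the words: Ifi211 (84%), Gm2000 (96%) and Gm10031 (100%). Gm2000 and Gm10031 were not called.

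Neighbouring members shared a direction about as often as neighbours elsewhere. Of 99 pairs of tested members next to each other on the chromosome 55.6% had fold changes of the same sign, against 51.2% of 6045 pairs of neighbours elsewhere. Spearman's rho over the pairs was 0.0165 against 0.0558, a description over genes that share libraries. The longest run of 1 sign was 7 tested members, from Ifi207 to Rbm8a2, all negative and 2 of them called. The first 5 of that run are the HIN-200 genes.

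At the limits of the choice, the members just over the count minimum were Sh2d1b1 (60 counts in all), Myoc (62), Fmn2 (62) and Mpc2 (63). Those just under it were Slamf8 (55), Opn3 (54), Fmo4 (53) and Brinp3 (51). Just inside the window lay Cdc73 and Trove2 at lower coordinates, 18.1 and 18.0 Mb from Fasl with log2 fold changes of 0.00 and -0.49. At higher coordinates it was Lefty1 and Nvl, at 19.1 and 19.3 Mb with -0.87 and 0.84. Just outside lay Zbtb41 and Aspm, both at 22.3 Mb, with 0.11 and -0.12. On the other side Enah and Srp9, at 20.1 and 20.3 Mb, had 0.54 and 0.76.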

How the data were processed

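RNA was measured in 6 libraries, 3 wt and 3 gld, by QuantSeq 3′ mRNA sequencing (FWD), which reads about 1 tag near the 3′ end of each molecule, with single reads of 75 nt, per the labels. The design text names Cutadapt, STAR, FastQC, RSeQC and MultiQC, and Trim Galore, DESeq2 and the mm10 build come from the submitters' processing notes, with no versions. Not given in the sources used here are the counting tool, whether it used strand, and its annotation. Overlapping or antisense genes therefore cannot be separated with certainty.

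The deposited table holds raw counts per Ensembl gene, used as deposited after leaving out 1 blank entry, with 57180 identifiers, and 0 sample columns were left unused. Positions and gene types came from GENCODE M21 (GRCm38). Genes were filtered with filterByExpr (about 10 counts in 3 libraries, 15 in total), libraries were scaled by TMM, and 8692 genes were tested with edgeR 4.0.16 in R 4.3.3 (quasi-likelihood test, no covariate, Benjamini-Hochberg adjustment, calls at 0.05). All log2 fold changes are of gld over wt, and their standard errors come from the change and its F statistic. CPM are on the TMM scale. Where wt had no count, the fold is a lower bound against 3 counts over the group, which covers counting error only. An end counts as single where 99% of the last 300 exonic bases lie in 1 transcript.

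No 2 libraries of a group agreed within sampling noise. The test was also run on simulated counts, and the outcome of that run is not given here. DESeq2 1.42.0, limma-voom 3.58.1, other filters, windows and scalings, the replicate block and leaving out each library were tried.

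Named are the 12 tested members nearest to Fasl, the 15 largest called increases and decreases, members with no count in 1 group, tested members of 7 role lists, and members at the limits of the choice. Some members that this rule names are not reported here. Other tested members are named outside this rule, chosen after their values were seen: Ildr2, Gm2000, Gm10031 and Rbm8a2, as are the untested Prdx6, Fam20b, Usp21 and Fmn2. The members and lists were chosen with earlier results of these data known. Promoters came from RefSeq (GRCm38.p6), with both strands searched for the TATA box TATAAA, the CCAAT box, the GC box GGGCGG, the full cAMP response element TGACGTCA and its core TGACG.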

Additional observations from a re-analysis of the deposited data

How the results depend on the processing

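Of the 26 called members, 16 kept the call under every alternative that gave a value, 9 higher and 7 lower in gld, and 10 lost it at least once. Over 81 named members and 887 alternative values, 835 stayed on their side of the threshold, 792 of them with the same sign, 13 passed newly and 39 no longer passed. The sign changed in 43 values, none of them of a called member. DESeq2 called 12 members higher and 14 lower. With library size scaling alone 11 were higher and 17 lower, the median log2 fold change was -0.12, and the median absolute value from 10 to 15 Mb was 0.57. Over the whole table that scaling gave 720 higher and 975 lower, against 847 and 668 with TMM. With limma-voom the median log2 fold change was -0.00137. Without the low-count filter 19 were higher and 15 lower, the medians were 0.63 (absolute) and 0.077 (signed), and that from 10 to 15 Mb was 0.60. With the replicate number as a block 11 were higher and 13 lower, 24.0% of those tested, the median absolute value from 10 to 15 Mb was 0.52, and Rasal2 (adjusted p = 0.0618), Cnst (0.0732) and Ifi211 (0.0535) were no longer called, while F11r (0.0474) was. The labels give no shared origin for equal numbers, and deviations of same-numbered libraries from their group means had correlations of -0.0231 to -0.015. A minimum of 200 counts gave medians of 0.50 (absolute) and -0.0077 (signed). Without HIN-200 and leukocyte genes the median absolute value from 10 to 15 Mb was 0.60, and with single-transcript ends alone the signed median was -0.0105. A window of 10 Mb left 8 lower calls, and one of 5 Mb left 5 higher and 0 lower with a signed median of 0.26. Leaving out members under 20 counts in a group, an alternative chosen after seeing the data, gave 7 higher, medians of 0.50 (absolute) and -0.0105 (signed), and 0.33 from 10 to 15 Mb. The causes of these shifts were not tested beyond the genes each setting leaves in or out.

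Leaving out each library in turn gave 9 to 16 higher and 10 to 12 lower calls, 21.0% to 25.9% of those tested, medians of 0.56 to 0.72 (absolute) and -0.11 to 0.15 (signed). By distance the shares were 14.3% to 21.4% from 0 to 5 Mb, 25.7% to 35.0% from 5 to 10 Mb, 14.3% to 28.6% from 10 to 15 Mb and 11.8% to 23.5% from 15 to 20 Mb. The median absolute values were 0.47 to 0.72, 0.62 to 0.81, 0.44 to 0.64 and 0.53 to 0.74 in the same order. With 3 libraries a group and 19 to 35 tested genes a bin, a change of 1 or 2 calls moves a share by several percentage points, and wt libraries of 2011173 to 3105322 counts limit what could be seen in low genes.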
